A study of Arabidopsis thaliana with 12 samples.

Results

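The 4 libraries numbered 3, one from each genotype, were compared with the 8 libraries numbered 1 or 2, which together make up all 12 libraries of the series. They were picked by the replicate number in the sample titles. The split itself was proposed with the principal components of these libraries known. All libraries came from aerial parts of 2-week-old *Arabidopsis thaliana* seedlings of the Columbia-0 background, grown in long days, and each was made from a pool of seedlings. WT was the unmutated parent. The *triple* mutant carried CRISPR alleles of *eds1*, *pad4* and *ndr1*, whose products act in effector-triggered immunity. The *quintuple* mutant lacked *cbp60b*, *cbp60c*, *cbp60d*, *cbp60e* and *cbp60f*, members of a calmodulin-binding transcription factor family, and the *octuple* mutant combined both sets. No group received a pathogen or a chemical. The study describes *quintuple* seedlings as dying early, so a pool of that genotype may hold seedlings in decline. What the number 3 stands for, such as a sowing, a harvest hour or an extraction, is not given in the sources used here, and these cannot be told apart.

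Plant cells keep time with a circadian clock of transcription factors that repress one another in sequence over the day. CCA1 and LHY peak around dawn and repress evening genes such as *TOC1* and the evening complex genes *ELF3*, *ELF4* and *LUX*, and the pseudo-response regulators PRR9, PRR7 and PRR5 follow CCA1 and LHY in daytime. The clock gates genes of light harvesting, starch turnover and growth, and the levels of many transcripts therefore oscillate over the day. The hour of harvest was not tested here.

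The libraries numbered 3 were as deep as the rest, with 41198211 to 44274721 counted fragments against 38698646 to 44294404. A count of 3 amounted to 0.0581 to 0.0787 CPM, the unit used below for counts scaled to library size with TMM factors. The first principal component of log2 CPM, after centring each genotype on its mean, held 47.4% of the variance. It placed the libraries numbered 3 at 52.2 to 73.0 and all others at -41.1 to -21.5. Because the split was proposed with principal components known, this separation is a description and no independent support for it. Within genotypes, the chi-square per degree of freedom of the counts was 330.3 to 401 between replicate 3 and either other replicate and 32.8 to 58.7 between replicates 1 and 2. TMM factors were 1.01 to 1.25 in replicate 3 and 0.903 to 1.11 in the others, and the 100 most abundant genes took 17.3% to 26.1% of the counts in replicate 3 and 20.9% to 34.2% elsewhere. Root markers had summed FPKM of 0.159 to 0.599 in replicate 3 and 0.106 to 0.392 elsewhere, flower markers 0.385 to 3.08 and 0.208 to 3.45, and leaf markers 3655.7 to 26753.8 and 11350.9 to 30449.8, so the labelled tissue was present in every library. *EDS1* lay at 4.14 to 8.87 CPM in *triple* and *octuple* and at 17.9 to 120 CPM in WT and *quintuple*. *CBP60b* was not lower in *quintuple* (154 to 248 CPM) than in WT (41.7 to 44.2 CPM). Counts on a mutated gene do not check such a label where the transcript is still made.

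**Figure D1:**
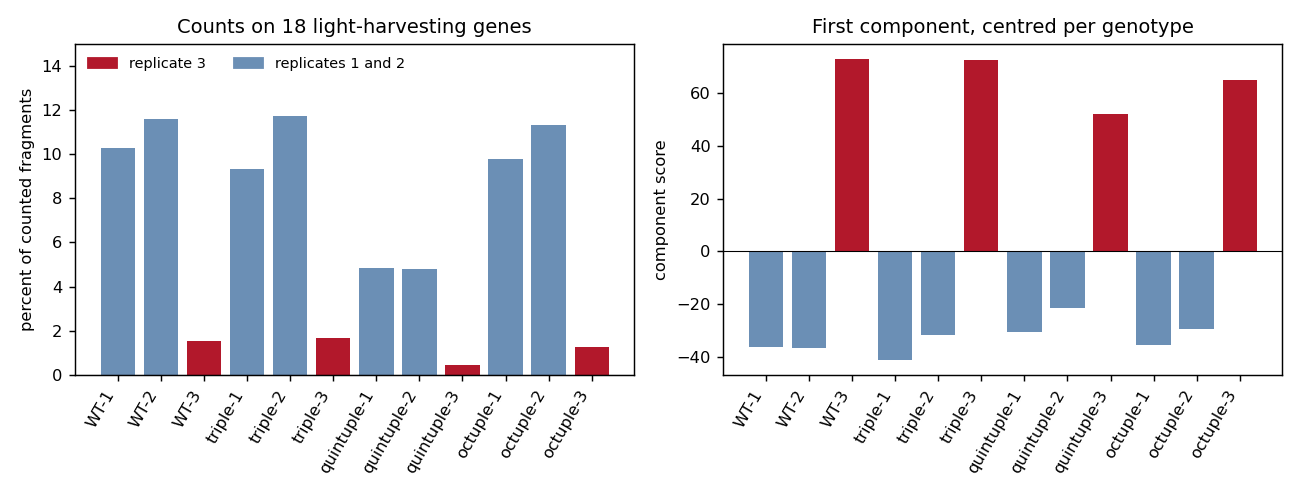
Left, percent of all counted fragments that fell on 18 light-harvesting genes in each of the 12 libraries; right, score of each library on the first principal component of log2 CPM centred per genotype (47.4% of the variance). Red bars are replicate 3 and blue bars replicates 1 and 2. In each genotype replicate 3 is the lowest bar on the left and the only positive bar on the right. The split was proposed with principal components of these libraries known.

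Replicate 3 was first compared with replicates 1 and 2 across genotypes, which asks what the 4 libraries share once genotype is set aside. Of 20996 genes tested, 558 were called higher in replicate 3 (2.66%) and 905 lower (4.31%), with edgeR's quasi-likelihood test and genotype as a block. A call required that the p adjusted by the Benjamini-Hochberg method stay under 0.05 and that levels differ 2-fold or more. The test takes the 4 libraries numbered 3 as separate samples, so p-values do not measure the spread between replicate numbers. Among the 12 genes with the largest increases were the jumonji demethylase gene *JMJD5* and the clock genes *ELF4*, *FKF1*, *PRR3*, *BOA* and *RVE2*. Among the 12 with the largest decreases were light-harvesting genes of the *LHCB1* and *LHCB2* groups and the clock genes *PRR9*, *CCA1*, *LNK3* and *LNK2*. The median log2 fold change over all genes was 0.005. By the adjusted p alone, 1774 genes were higher (8.45%) and 1999 lower (9.52%). Replicate 3 lay above both other replicates in all 4 genotypes in 1990 genes (9.48%) and below both in 2333 (11.1%). Among the called genes these shares were 79.4% of those higher and 89.0% of those lower. Of the variance of a gene, genotype took a median of 69.4% and replicate 3 a median of 4.88%. Over the 28 genes of the clock lists the order was turned, with 4.77% for genotype and 89.3% for replicate 3.

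Of 14 genes of the dawn and morning clock, 11 were called lower in replicate 3 and 1 higher, beside 4.31% and 2.66% of all genes. The median of the list was -3.84 on the log2 scale. *CCA1*, the MYB factor at the centre of the morning loop, had 137, 97.7 and 1.3 CPM in WT replicates 1, 2 and 3, and 212, 96.4 and 0.965 CPM in *triple*. It had 102, 68.5 and 2.26 CPM in *quintuple* and 138, 99.1 and 1.17 CPM in *octuple*. Replicate 3 was far below both other replicates in every genotype, and no level of the 2 classes overlapped (log2 fold change -6.33, SE 0.42, edgeR adjusted p = 3.50e-06). *LHY*, its partner, read 77.5, 25.5 and 3.62 CPM in WT, 102, 24.7 and 3.32 CPM in *triple*, 37.1, 31.8 and 3.00 CPM in *quintuple* and 80.9, 24.4 and 4.47 CPM in *octuple*. Here too the 4 libraries numbered 3 were the lowest, and replicate 1 exceeded replicate 2 in each genotype (log2 fold change -3.78, SE 0.52, edgeR adjusted p = 0.000508).

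The LNK coactivators, which work with RVE factors, were lower as well. *LNK2* had 433 to 935.6 CPM in replicates 1 and 2 of WT, *triple* and *octuple*, 234 and 277 CPM in those of *quintuple*, and 6.59 to 8.29 CPM in replicate 3. Its log2 fold change of -5.91 (SE 0.35, edgeR adjusted p = 1.67e-06) came with no overlap. *LNK4*, *LNK3* and *LNK1* had log2 fold changes of -8.02, -6.31 and -4.26, and *LNK4* had only 0.0710 CPM in WT replicate 3, a level of 3 counts. *PRR9*, the first repressor to follow CCA1, had 28.7 to 47.5 CPM in replicates 1 and 2 and 0.142, 0.118, 0.639 and 0 CPM in replicate 3 of WT, *triple*, *quintuple* and *octuple*. Against the floor of 3 counts it was at least 450.0-fold lower in *octuple* replicate 3 than in the mean of the other *octuple* libraries, and 31.2% of its 50-base sequences also lie in AT2G46670, so its counts are uncertain. *PRR7*, the next repressor, read 107 to 192 CPM in replicates 1 and 2, 5.63 to 7.81 CPM in replicate 3 of WT, *triple* and *octuple* and 25.9 CPM in that of *quintuple* (log2 fold change -3.89, SE 0.30, edgeR adjusted p = 9.76e-06). The MYB factors *RVE7*, *RVE8* and *RVE1* were also lower, at -3.55, -2.71 and -1.98. *RVE7* shares 54.7% of its 50-base sequences with AT3G10113.

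The other 3 dawn members were not called lower. *RVE4*, a close relative of RVE8, had 45.4 to 83.9 CPM in replicates 1 and 2 and 17.96 to 40.6 CPM in replicate 3. Its levels were lower in replicate 3 without overlap and missed only the fold threshold (log2 fold change -0.97, edgeR adjusted p = 0.000992), which 7 of 25 alternatives passed. *RVE6* had a log2 fold change of -0.27 with an edgeR adjusted p of 0.145. *RVE2*, a morning factor by name, went the other way, with 1.54 to 4.22 CPM in replicates 1 and 2 and 86.7, 76.9, 32.1 and 75.1 CPM in replicate 3 of WT, *triple*, *quintuple* and *octuple*. All 4 libraries numbered 3 were above the other 8 (log2 fold change 4.89, SE 0.34, edgeR adjusted p = 5.33e-06).

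Of 14 genes of the afternoon and evening clock, 10 were called higher in replicate 3 and 2 lower, beside 2.66% and 4.31% of all genes. The median log2 fold change was 2.62. *TOC1*, the evening repressor of *CCA1*, read 10.6, 13.4 and 100.5 CPM in WT replicates 1, 2 and 3, 10.7, 16.1 and 100.5 CPM in *triple*, 35.2, 25.7 and 171 CPM in *quintuple* and 18.5, 19.8 and 104 CPM in *octuple*. Replicate 3 was highest in each genotype, and the lowest of its 4 levels exceeded the highest of the other 8 (log2 fold change 2.73, SE 0.14, edgeR adjusted p = 6.12e-07). *ELF4*, a small protein of the evening complex, stood at 0.0723 to 1.95 CPM in replicates 1 and 2 and at 33.7, 36.2, 149 and 40.5 CPM in replicate 3 of WT, *triple*, *quintuple* and *octuple*. The *quintuple* library numbered 3 was the highest (log2 fold change 6.4, SE 0.39, edgeR adjusted p = 2.11e-06). Its partners *LUX* and *ELF3* were higher by 2.42 (SE 0.15) and 2.22 (SE 0.18), with 30.8 to 42.4 CPM and 61.0 to 63.7 CPM in replicate 3 against 4.99 to 8.52 CPM and 7.52 to 18.01 CPM. *BOA*, a *LUX* relative that shares 43.7% of its 50-base sequences with AT5G59580, was higher by 5.35.

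*FKF1*, a blue light receptor and F-box protein that acts in photoperiodic flowering, had 0.0241 to 2.88 CPM in replicates 1 and 2 and 25.6, 25.7, 47.5 and 25.8 CPM in replicate 3 of WT, *triple*, *quintuple* and *octuple*. Replicate 3 was above all 8 other libraries (log2 fold change 6.39, SE 0.56, edgeR adjusted p = 2.72e-05). *COR27*, a regulator of freezing tolerance and clock period, was at 0 in replicates 1 and 2 of *triple* and had 24.1 CPM in replicate 3, at least 322-fold higher against a floor of 3 counts a library. In WT it had 0.0259, 0.0251 and 19.8 CPM, in *quintuple* 0.317, 0.206 and 50.1 CPM, and in *octuple* 0, 0.0248 and 16.7 CPM. *COR28*, its paralogue, had 0 to 0.251 CPM in the 8 libraries and 8.33 to 18 CPM in replicate 3. *PRR3* and *PRR5* were higher by 6.27 and 2.52. *PRR5* had 8.85 to 20.0 CPM in replicate 3, and *quintuple* replicate 1, at 9.80 CPM, reached into that range.

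Not every evening gene was higher. *GI*, a large clock protein that stabilizes ZTL, had 21.8 to 45.8 CPM in replicates 1 and 2 of WT, *triple* and *octuple* and 8.38 to 14.4 CPM in their replicate 3, with 86.0, 83 and 52.7 CPM in *quintuple*. Replicate 3 was the lowest library within each genotype, though *quintuple* as a whole lay above the rest (log2 fold change -1.21, SE 0.21, edgeR adjusted p = 0.00232). *CHE*, a TCP repressor of *CCA1*, was lower by 1.95 on the log2 scale (SE 0.11, edgeR adjusted p = 1.31e-06). *ZTL* and *LKP2*, F-box relatives of FKF1, had log2 fold changes of 0.07 and 0.04 with edgeR adjusted p of 0.654 and 0.834. Replicate 3 lay outside replicates 1 and 2 on one side in all 4 genotypes for 13 of the 14 dawn genes and 12 of the 14 evening genes, beside the 9.48% and 11.1% of all genes above or below.

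**Figure D2:**
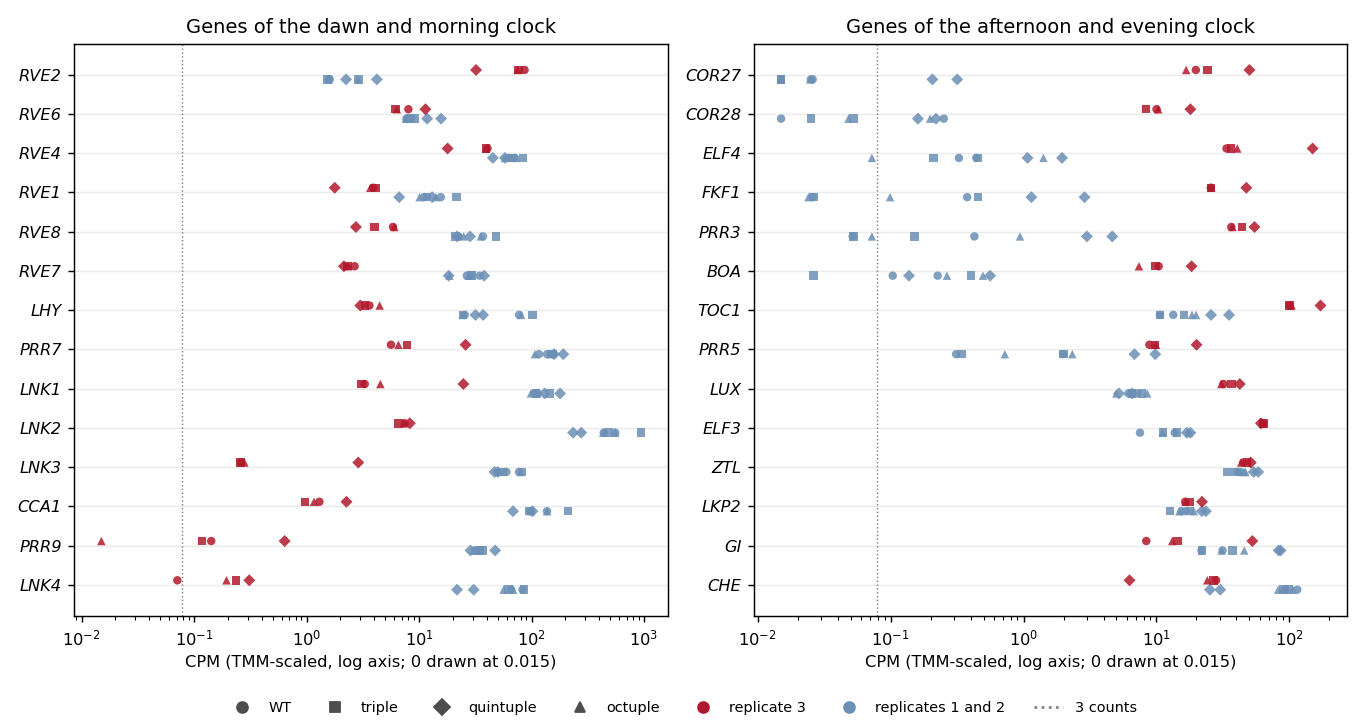
TMM-scaled CPM on a log axis of the 28 clock genes in all 12 libraries, dawn and morning genes on the left and afternoon and evening genes on the right; shapes are genotypes, red is replicate 3, blue is replicates 1 and 2, values of 0 are drawn at 0.015 and the dotted line marks 3 counts at their highest, 0.0787 CPM. Red and blue points are apart for most genes and overlap for RVE6, ZTL, LKP2, GI, CHE and PRR5.

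The bases before the gene start of 4 clock genes are shown because they hold the motifs counted next. These are the 250 bases upstream of the annotated start, 5′ to 3′ on the strand of the gene, from RefSeq TAIR10.1, with matches to the evening element or the G-box on either strand in capitals. *TOC1* is at chr5:24674713-24674962 (+), *LUX* at chr3:17182792-17183041 (+), *CCA1* at chr2:19245341-19245590 (+) and *LHY* at chr1:37872-38121 (-). The build behind the counts is not given in the sources used here, and genes were matched by identifier.
TOC1: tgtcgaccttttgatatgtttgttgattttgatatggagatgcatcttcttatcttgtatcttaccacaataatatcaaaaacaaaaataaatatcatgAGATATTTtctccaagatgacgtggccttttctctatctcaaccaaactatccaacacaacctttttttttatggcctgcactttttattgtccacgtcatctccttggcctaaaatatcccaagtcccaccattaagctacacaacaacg
LUX: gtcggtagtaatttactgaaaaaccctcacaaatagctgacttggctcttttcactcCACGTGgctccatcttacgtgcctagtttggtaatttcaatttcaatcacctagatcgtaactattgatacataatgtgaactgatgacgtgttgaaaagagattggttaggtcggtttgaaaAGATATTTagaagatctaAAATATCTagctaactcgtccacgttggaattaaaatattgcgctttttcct
CCA1: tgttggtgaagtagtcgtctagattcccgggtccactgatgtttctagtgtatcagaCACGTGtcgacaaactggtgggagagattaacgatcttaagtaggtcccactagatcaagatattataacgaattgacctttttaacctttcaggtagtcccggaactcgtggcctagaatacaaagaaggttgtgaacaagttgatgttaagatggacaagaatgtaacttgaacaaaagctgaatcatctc
LHY: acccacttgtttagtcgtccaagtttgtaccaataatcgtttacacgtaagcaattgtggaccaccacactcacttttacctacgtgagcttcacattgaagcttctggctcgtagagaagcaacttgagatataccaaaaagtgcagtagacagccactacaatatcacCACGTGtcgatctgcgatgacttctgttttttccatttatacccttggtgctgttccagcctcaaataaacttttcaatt

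The evening element, AAATATCT, is a site that the CCA1 and RVE factors are known to bind. It was found on either strand in the 250 bases before the start of 85 of 558 genes called higher (15.2%), in 42 of 905 called lower (4.64%) and in 1051 of 20995 genes tested that could be read (5.01%). Among the 11 clock genes called higher, 7 had it (63.6%), *TOC1*, *LUX*, *FKF1*, *BOA* and *PRR5* among them. Among the 13 called lower, *RVE7* alone had it. In the sequences above, *TOC1* holds it once and *LUX* more than once, and *CCA1* and *LHY* hold a G-box and no evening element. The G-box, CACGTG, bound by bZIP and bHLH factors such as the PIFs, was in 10.9% of promoters of genes called higher, 11.4% of those called lower and 7.39% of all. It was in 6 of the 13 clock genes called lower and in 3 of the 11 called higher. The related CCA1 binding site, AAAAATCT, was in 8.06%, 7.18% and 6.74%, and the telo-box, AAACCCTA, in 1.61%, 2.21% and 3.59%. No matches of different motifs overlapped. These shares are descriptions without a test, and a match is not shown to be a bound site.

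**Figure D3:**
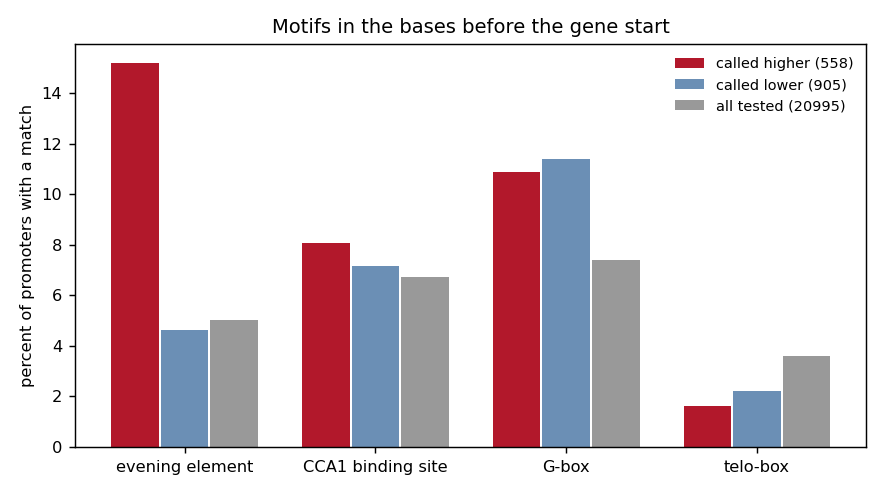
Percent of promoters, 250 bases before the gene start, with a match on either strand to each of 4 motifs, for genes called higher in replicate 3 (558), called lower (905) and all genes tested with a promoter read (20995). The evening element is in 15.2% of promoters of genes called higher and in 5.01% of all.

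Direct outputs of the clock differed strongly, with 3 of 10 called higher and 6 lower, beside 2.66% and 4.31% of all genes. *GRP7*, an RNA-binding protein that oscillates with an evening peak, had 42.1, 123 and 1276 CPM in WT replicates 1, 2 and 3, 35.6, 116 and 1280.4 CPM in *triple*, 155, 203 and 2361 CPM in *quintuple* and 53.1, 176 and 1229 CPM in *octuple*. Replicate 3 was the highest by a wide margin in every genotype (log2 fold change 3.8, SE 0.38, edgeR adjusted p = 7.03e-05). *CO*, the flowering activator that accumulates late in long days, and *FT*, its target in leaves, were higher by 3.55 and 2.93. For *FT* the levels in replicate 3 were 5.75, 6.97, 0.290 and 3.30 CPM in WT, *triple*, *quintuple* and *octuple*, and in *quintuple* this lay within the 0.115 and 0.317 CPM of replicates 1 and 2. The repressors of *CO* were lower, with *CDF3* at -3.98, *CDF5* at -2.75 and *CDF1* at -2.61, and so were *CDF2* at -1.57, *COL2* at -5.38 and *COL1* at -2.33. All of *COL1* overlaps a gene on the other strand and the strand setting of the counting is not given in the sources used here, so its reads and those of its partner cannot be told apart. The paralogue of GRP7, *GRP8*, did not pass the test (log2 fold change 0.26, edgeR adjusted p = 0.347).

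The genes with the largest fold changes, picked by a rule on counts and on replicate 3 lying on one side in all genotypes, were not all clock genes. *JMJD5*, a jumonji-domain demethylase linked to clock period, led them with 0.206 to 1.24 CPM in replicates 1 and 2 and 162, 167, 98.6 and 148 CPM in replicate 3 of WT, *triple*, *quintuple* and *octuple* (log2 fold change 7.81, SE 0.20, edgeR adjusted p = 7.10e-09). The 2 classes were far apart in all genotypes. AT1G07050, annotated as a CCT motif protein, followed at 7.21 and AT2G23910, a Rossmann-fold protein, at 6.75. *COL9*, a CONSTANS-like repressor of flowering, had 0.856 to 1.66 CPM in the 8 libraries and 60.7 to 74.0 CPM in the 4 (log2 fold change 5.62, SE 0.13, edgeR adjusted p = 2.74e-09). AT1G17665 was higher by 5.40 and AT5G23240, a DNAJ protein, by 6.44, and 82.1% of its 50-base sequences also lie in the antisense gene AT5G23235. On the lower side outside the clock and light-harvesting lists stood *BBX16*, a B-box protein, at least 580.5-fold lower in *triple* replicate 3, which had no count, and AT3G55240 (log2 fold change -6.09).

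Over the 12 libraries, with each genotype centred on its mean, the log2 CPM of AT3G13062, *FTSH8*, AT4G15430 and AT5G54130 followed *LHY* most closely (Pearson r 0.991, 0.989, 0.988 and 0.987). *LETM1*, *GRP7*, AT2G20270 and AT5G48470 ran most nearly opposite (r -0.998, -0.998, -0.992 and -0.992). These genes were picked for that likeness, so it is a description. *FTSH8*, a subunit of the thylakoid protease that repairs photosystem II, had 177 to 337 CPM in replicates 1 and 2 and 113 to 198 CPM in replicate 3.

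Light-harvesting genes had the lowest median of the lists examined. Of 18 genes for chlorophyll-binding proteins, 17 were called lower and 1 higher, beside 4.31% and 2.66% of all genes. The median log2 fold change was -4.35. Together they took 10.3%, 11.6% and 1.52% of the counts in WT replicates 1, 2 and 3, 9.35%, 11.7% and 1.66% in *triple*, 4.86%, 4.80% and 0.438% in *quintuple* and 9.78%, 11.3% and 1.24% in *octuple*. Every library numbered 3 was below all 8 others. In these bulk samples, fewer cells of a type and less RNA per cell cannot be told apart. *LHCB1.1*, a major antenna protein of photosystem II, had 9009.8, 9359.8 and 37.9 CPM in WT, 7957, 9356.8 and 38.3 CPM in *triple*, 2556, 2420.0 and 13.0 CPM in *quintuple* and 7128, 8332 and 14.3 CPM in *octuple*. No level of replicate 3 came near the others (log2 fold change -8.06, SE 0.35, edgeR adjusted p = 1.57e-07). The *LHCB2* genes followed at -7.45 (*LHCB2.3*), -7.04 (*LHCB2.2*) and -6.64 (*LHCB2.1*), and the photosystem I antenna genes at -4.29 (*LHCA4*) to -1.66 (*LHCA2*). *LHCB1.1*, *LHCB1.3* and the *LHCB2* genes share 20.5% to 39.9% of their 50-base sequences with other genes and *LHCB1.5* overlaps an antisense gene throughout, so the counts of single copies are uncertain.

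*LHCB4.3*, a minor antenna gene, was the exception. It had 236, 182 and 526.2 CPM in WT, 221, 173 and 584 CPM in *triple*, 132, 117 and 355 CPM in *octuple*, but 56.7, 58.0 and 36.6 CPM in *quintuple*. Replicate 3 was the highest in 3 genotypes and the lowest in *quintuple* (log2 fold change 1.06, SE 0.28, edgeR adjusted p = 0.0257). Over 25 alternatives its edgeR, DESeq2 or limma adjusted p ran from 4.96e-06 to 0.302, and 12 ended the call, among them leaving out any library of WT, *triple* or *octuple* other than WT replicate 1.

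Chlorophyll synthesis was lower in 6 of 16 genes, beside 4.31% of all genes, and higher in none. *CHLH*, the large subunit of magnesium chelatase, had 3551 to 4705.5 CPM in replicates 1 and 2 of WT, *triple* and *octuple* and 784 to 1069.9 CPM in replicate 3, with 1796, 1327 and 121 CPM in *quintuple*. Replicate 3 was lowest in each genotype (log2 fold change -2.46, SE 0.28, edgeR adjusted p = 0.000148). *CAO*, which makes chlorophyll b, was lower by 3.33 on the log2 scale (SE 0.11), and *HEMA1*, *CRD1* and *GUN4* by 2.36, 2.36 and 2.23. *PORA* was also called, at no more than 0.817 CPM in any library. *RBCS1A*, the small subunit of Rubisco, did not pass the test (log2 fold change -0.28, edgeR adjusted p = 0.537), while the leaf markers *PSAD1* and *PSBO1*, subunits of photosystems I and II, were lower by 1.55 and 1.23.

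Growth genes of the PIF pathway were lower in 9 of 13 cases, beside 4.31% of all genes, and higher in none. Their median log2 fold change was -2.38. The bHLH factors *PIF4* and *PIF5*, which promote elongation, had 96.0 to 143 CPM and 126 to 179 CPM in replicates 1 and 2, against 4.66 to 11.3 CPM and 8.21 to 13.1 CPM in replicate 3 (log2 fold changes -4.02, SE 0.22, and -3.76, SE 0.18). Neither overlapped. Auxin genes downstream of them were lower as well, *YUC8*, an auxin synthesis enzyme, from 0.146 to 2.62 CPM to between 0 and 0.108 CPM, *IAA29* by 3.68 and *IAA6* by 2.85 on the log2 scale. *PIF3* did not pass the test (log2 fold change -0.06, edgeR adjusted p = 0.788). Only 3 members were called lower with limma on FPKM. Among light signalling genes 5 of 15 were lower and 1 higher, beside 4.31% and 2.66% of all genes. The B-box genes *BBX25*, *BBX24* and *BBX31* were lower by 3.26, 2.58 and 1.60, *SIG5*, a plastid sigma factor, by 2.94 and *RUP2*, a repressor of UV-B signalling, by 1.04. *HY5*, the light-signalling bZIP factor, was higher by 1.23.

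Starch genes moved in part, with 9 of 26 called higher and 2 lower, beside 2.66% and 4.31% of all genes. Their median log2 fold change was 0.50. Of the 9 genes 6 act in breakdown. *PWD*, a dikinase that phosphorylates starch before it is degraded, had 33.5, 58.0 and 348 CPM in WT, 41.2, 61.2 and 393 CPM in *triple*, 93.5, 92.1 and 208 CPM in *quintuple* and 32.4, 66.5 and 338 CPM in *octuple*. It was highest in replicate 3 of every genotype, and least so in *quintuple* (log2 fold change 2.52, SE 0.29, edgeR adjusted p = 0.000167). The debranching enzyme *ISA3*, the beta-amylase *BAM3*, the phosphorylase *PHS2* and the phosphatase *SEX4* were higher by 2.43, 1.98, 1.81 and 1.72, *SBE3*, *GWD1*, *SS4* and *PGM1* by 1.77, 1.4, 1.38 and 1.03. The call of *PGM1* was ended by 12 of 25 alternatives. *GBSS1*, the granule-bound synthase that makes amylose and a known CCA1 target, was lower by 2.54 (SE 0.32), as was *BAM9* by 1.47.

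Sugar starvation genes went both ways, 3 of 18 higher and 6 lower, beside 2.66% and 4.31% of all genes. *BT2*, a BTB protein that responds to sugar and daytime, was higher by 4.13 (SE 0.40), and the dormancy-related *DRM2* and *DRM1* by 3.50 and 2.26. *SEN1*, *DIN6*, *TPS8*, *TPS11*, *TPS9* and *DIN10* were lower by 3.48, 2.52, 2.47, 1.71, 1.24 and 1.18, and 3 of these 6 calls were left without *octuple* replicate 3 or *triple* replicate 3. The call of *DIN6* (edgeR adjusted p = 0.0468) was ended by 17 of 25 alternatives, over which its log2 fold change ran from -4.74 to -0.68. Of 7 nitrate genes *NIA1*, a nitrate reductase, was lower by 1.3 and no other was called, beside 4.31% of all genes lower.

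Flavonoid synthesis was higher in 12 of 13 genes, beside 2.66% of all genes, with a median log2 fold change of 1.98. Replicate 3 lay outside replicates 1 and 2 on one side in all 4 genotypes in 6 of the 13. Of all genes, 9.48% lay above and 11.1% below in this way. *CHS*, chalcone synthase, the first enzyme of the pathway, had 237, 123 and 981 CPM in WT, 218, 130 and 945 CPM in *triple*, 371, 186 and 1226 CPM in *octuple* and 345, 502 and 254 CPM in *quintuple*. Replicate 3 was the highest in 3 genotypes and the lowest in *quintuple* (log2 fold change 1.82, SE 0.45, edgeR adjusted p = 0.0173). *MYB111*, an activator of flavonol synthesis, and *FLS1*, flavonol synthase, were higher by 2.78 and 2.80, and *PAP2*, an anthocyanin regulator, by 3.58. *DFR* alone was not called (log2 fold change 1.25, edgeR adjusted p = 0.0912). Leaving out replicate 3 of WT, *triple* or *octuple* ended the call of *CHS*, whose adjusted p ran from 9.01e-05 to 0.133 over the alternatives. Without the genotype block 2 of the 13 genes passed.

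Iron homeostasis genes were called higher in 6 of 15 cases, beside 2.66% of all genes, and lower in none, but this rested on *octuple*. *IMA3*, a peptide that signals iron shortage, had 6.82, 7.63 and 26.1 CPM in WT, 11.3, 10.4 and 37.1 CPM in *triple*, 1.02, 2.43 and 1.297 CPM in *quintuple* and 5.98, 6.14 and 89.5 CPM in *octuple*. *Octuple* replicate 3 was the highest, and in *quintuple* replicate 3 lay between the other 2. Without *octuple* replicate 3, 1 of the 15 was called, and the log2 fold change of *IMA3* went from 2.07 to 1.28. *BHLH100*, a factor of the iron response, had 0 to 0.0488 CPM in replicates 1 and 2 and 0.0710, 1.27, 0 and 21.8 CPM in replicate 3 of WT, *triple*, *quintuple* and *octuple*. Of 14 cold and dehydration genes 5 were higher and 2 lower, beside 2.66% and 4.31% of all genes. *COR15B* and *COR15A*, chloroplast proteins of cold acclimation, were higher by 4.96 and 2.38, *KIN2* by 2.29, *COR413IM1* by 1.19 and *RD29A* by 1.18, and *COR15B* shares 28.2% of its 50-base sequences with another gene. The call of *COR413IM1* was ended by 12 of 25 alternatives. *CBF2*, an upstream activator of cold genes, and *GOLS3* were lower, with *CBF2* at 0, 0, 1.43 and 0.0863 CPM in replicate 3 and 0.313 to 18.8 CPM elsewhere.

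The defence and stress lists differed in how many members were called, beside the 6.97% of all genes called in either direction and the 4.31% called lower. No member was called among 10 salicylic acid genes, 13 phosphate starvation genes, 14 aliphatic glucosinolate genes, 8 reference genes or the 8 mutated genes with edgeR's test, and at an unadjusted p below 0.05 these lists held 0, 3, 3, 5 and 2 genes. DESeq2 called 0 in each of them, and limma called 1 phosphate gene and 0 in the others. *SID2*, the salicylic acid synthesis enzyme, had 15.3, 11.5 and 5.14 CPM in WT and 629, 357 and 604 CPM in *quintuple*, so replicate 3 lay below the others in WT and between them in *quintuple*. Of 15 jasmonate genes *AOC2* and *LOX2* were higher by 1.36 and 1.34 and *AOC1* lower by 1.00, a call that 16 of 25 alternatives ended. *HSP70-4* and *HSP18.2* were the 2 of 11 heat shock genes called, lower by 1.48 and 1.35, and *TCH4*, *TCH3* and *TCH2* the 3 of 6 touch genes, lower by 2.74, 1.53 and 1.01. The call of *TCH2* was ended by 10 of 25 alternatives. Without *quintuple* replicate 2, 5 heat shock genes were called, and without WT replicate 3 or *triple* replicate 3, 1 touch gene was.

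Whether the shift of replicate 3 was the same in each genotype was asked next, with a term for replicate 3 in each genotype and the spread taken from the differences between replicates 1 and 2. The clock genes called across genotypes moved in one direction in all 4. The median shift of the dawn list was -3.35 in *quintuple* and -4.16, -4.27 and -3.92 in WT, *triple* and *octuple*. For the evening list it was 2.67 in *quintuple* and 3.00, 2.98 and 2.57 in the others. Clock outputs had -0.86 in *quintuple* and -2.09, -2.41 and -1.91 in the others. Several lists of metabolic genes also had other medians in *quintuple*. Across 20996 genes the fitted shifts correlated between WT and *triple* with a Pearson r of 0.539, between WT and *octuple* with 0.450, and between *triple* and *octuple* with 0.470. With *quintuple* they correlated at 0.267 (WT), 0.272 (*triple*) and 0.318 (*octuple*). Genes are not independent replicates, and these values are a description. Genes called higher had median shifts of 1.61 in WT, 1.68 in *triple*, 1.54 in *octuple* and 0.998 in *quintuple*. Genes called lower had -1.81, -1.75, -1.64 and -1.79.

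A difference of any kind between genotypes passed an adjusted p of 0.05 in 90 genes (0.429%), and 2566 passed an unadjusted p of 0.05. Leaving out any 1 library numbered 1 or 2 brought the count to between 0 and 3. Replicates 1 and 2 differed in a way that the genotypes shared, and with that difference as a replicate block, added after the data were seen, 587 genes passed, among them all 90. The mean shift of both *cbp60* mutants lay above that of WT and *triple* in 0 genes (0%) and below it in 3 (0.0143%) with edgeR, beside 2782 genes at an unadjusted p below 0.05. With the replicate block 105 were above and 157 below, DESeq2 called 150 above and 254 below, and limma 9 and 10. The 3 genes were *FRO6*, a ferric chelate reductase (difference of log2 shifts -2.69, SE 0.19, edgeR adjusted p = 0.00623), AT2G15020 (-2.47) and *FADA*, a desaturase of the thylakoid lipid phosphatidylglycerol (-1.76). *FRO6* had 271, 236 and 54.4 CPM in WT, 243, 210.0 and 59.7 CPM in *triple*, 167, 161 and 1.63 CPM in *quintuple* and 245, 202 and 30.7 CPM in *octuple*. Replicate 3 was lowest in every genotype and by far the lowest in *quintuple*. All 3 genes also passed the contrast of *quintuple* with the other genotypes, described next, at -4.32, -4.47 and -3.30 (edgeR adjusted p of 0.00128, 0.00128 and 0.00221). The mean over both *cbp60* mutants therefore does not show a shift of that size in *octuple*. The call of *FADA* was lost when any of the 8 libraries numbered 1 or 2 was left out, with edgeR adjusted p up to 0.122.

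The shift in *quintuple* lay above the mean shift of the other 3 genotypes in 230 genes (1.1%) and below it in 823 (3.92%). With the replicate block the counts were 466 and 1099, with 228 and 822 of the genes shared. Of the 1053 genes (5.02%) without it, 835 were not called in the comparison across genotypes. The contrast rests on 1 *quintuple* library numbered 3, which also had the highest TMM factor of all, 1.25; its part in the result was not tested. Of the genes called higher across genotypes, 72 had a smaller shift in *quintuple*, and of those called lower, 64 had a less negative one. Without *quintuple* replicate 1 the counts were 129 above and 469 below, and without *quintuple* replicate 2 they were 75 above and 630 below.

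Within the clock, 5 of 28 genes differed in *quintuple*, beside 5.02% of all genes. *LNK1*, *LNK3*, *PRR7* and *PRR9* had a smaller drop there, with differences of log2 shifts of 2.34 (SE 0.27), 3.90 (SE 0.45), 1.60 (SE 0.25) and 3.90 (SE 0.65) and edgeR adjusted p of 0.00669, 0.00657, 0.0132 and 0.0157. For *LNK1* the levels were 114, 105 and 3.29 CPM in WT and 179, 131 and 24.8 CPM in *quintuple*. *LNK1* thus dropped in both genotypes and kept a higher level in *quintuple* replicate 3. *COR27* had a smaller shift in *quintuple* (-3.27, SE 0.65, edgeR adjusted p = 0.0315), a fitted value that depends on the libraries at 0 in *triple* and *octuple*. The other 23 clock genes did not pass this test. With the replicate block *CCA1*, *LNK2*, *LNK4*, *RVE2* and *PRR3* passed as well (edgeR adjusted p of 0.014, 0.0174, 0.00578, 0.0449 and 0.0105), each moving less in *quintuple* than in the mean of the others. Over all 20996 genes tested, that block gave 466 above and 1099 below.

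The medians of the starch, flavonoid, glucosinolate and chlorophyll lists lay lower in *quintuple* than elsewhere, and that of the sugar starvation list lay higher. Sugar starvation genes had median shifts of -0.95, -0.99 and -1.19 in WT, *triple* and *octuple* and -0.048 in *quintuple*. There 2 of 18 had a larger shift and 1 a smaller one, beside 1.1% and 3.92% of all genes, and the share with a smaller shift is near that of all genes. With the replicate block 4 had a larger shift and 1 a smaller one. Starch genes had median shifts of 0.78, 0.77 and 0.86 in WT, *triple* and *octuple* and -0.40 in *quintuple*, and 12 of 26 had a smaller shift there beside 3.92% of all genes. *PHS2* had 124, 148 and 703 CPM in WT, 160.0, 159 and 739 CPM in *triple*, 129, 238 and 796 CPM in *octuple* and 412, 409 and 415 CPM in *quintuple*. It was highest in replicate 3 of the first 3 genotypes, and the 3 *quintuple* libraries were close to each other (difference -2.22, SE 0.38, edgeR adjusted p = 0.0174). *SS4*, a starch synthase that initiates granules, had 89.7, 74.6 and 75.3 CPM in *quintuple* and 55.6, 74.5 and 233 CPM in WT.

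Flavonoid genes had median shifts of 2.45, 2.2 and 2.76 in WT, *triple* and *octuple* and 0.25 in *quintuple*, with 5 of 13 smaller there beside 3.92% of all genes. For *CHS* the difference was -3.08 (SE 0.66, edgeR adjusted p = 0.0326), and for *PAP2* it was -4.32 (SE 0.84, edgeR adjusted p = 0.0246). Aliphatic glucosinolate genes, none of which was called across genotypes, had median shifts of 0.00 in WT, 0.05 in *triple*, 0.04 in *octuple* and -1.22 in *quintuple*. There 9 of 14 were smaller, beside the same 3.92% of all genes. *MYB28*, the main activator of that pathway, had 42.9, 47.1 and 22.8 CPM in *quintuple* and 93.1, 76.5 and 113 CPM in WT. *MAM1*, a chain-elongation enzyme, had 387, 358 and 157 CPM in *quintuple* and 443, 372 and 427 CPM in WT. Replicate 3 was the lowest *quintuple* library for both genes and the lowest WT library for neither.

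Chlorophyll synthesis (6 of 16 smaller in *quintuple*, median shift -1.66 there) and the leaf markers (4 of 4, -2.47) showed the same order. Of 18 light-harvesting genes, the shift in *quintuple* lay below the mean of the others in 5 and above it in 2, beside 3.92% and 1.1% of all genes. Their median shift was -4.04 in *quintuple*, between -3.97 in *triple* and -4.31 in *octuple*. *RCA*, Rubisco activase, had 7154, 6754 and 1069.8 CPM in *quintuple*, and 17585, 16902 and 10709 CPM in WT (difference -2.10, SE 0.24, edgeR adjusted p = 0.00657). *RBCS1A* had 6000.1, 5398 and 2352 CPM in *quintuple* and 22531, 23775 and 22570.2 CPM in WT. Both genes were low in all *quintuple* libraries and lowest in replicate 3. The summed FPKM of leaf markers was at its lowest, 3655.7, in *quintuple* replicate 3, and the part of leaf tissue content in these differences was not tested.

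**Figure D4:**
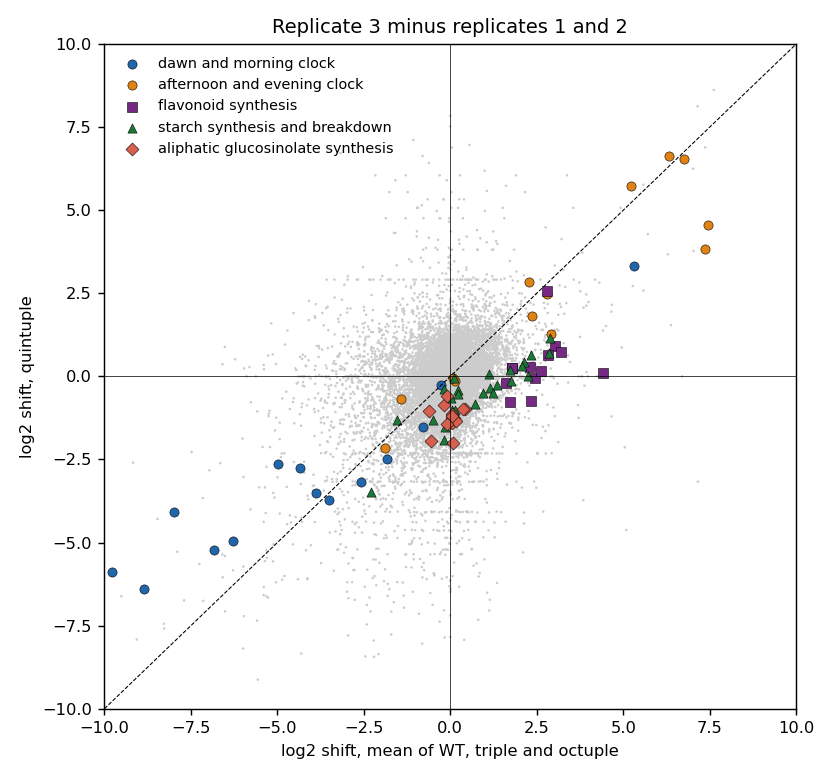
Fitted log2 shift of replicate 3 against replicates 1 and 2 in quintuple (vertical axis) against the mean of the shifts in WT, triple and octuple (horizontal axis), for all genes tested (grey) and 5 gene lists; the dashed line marks equal shifts, and 2 genes lie outside the axes. Clock genes spread along the line, and most flavonoid, starch and glucosinolate genes lie below it.

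**Figure D5:**
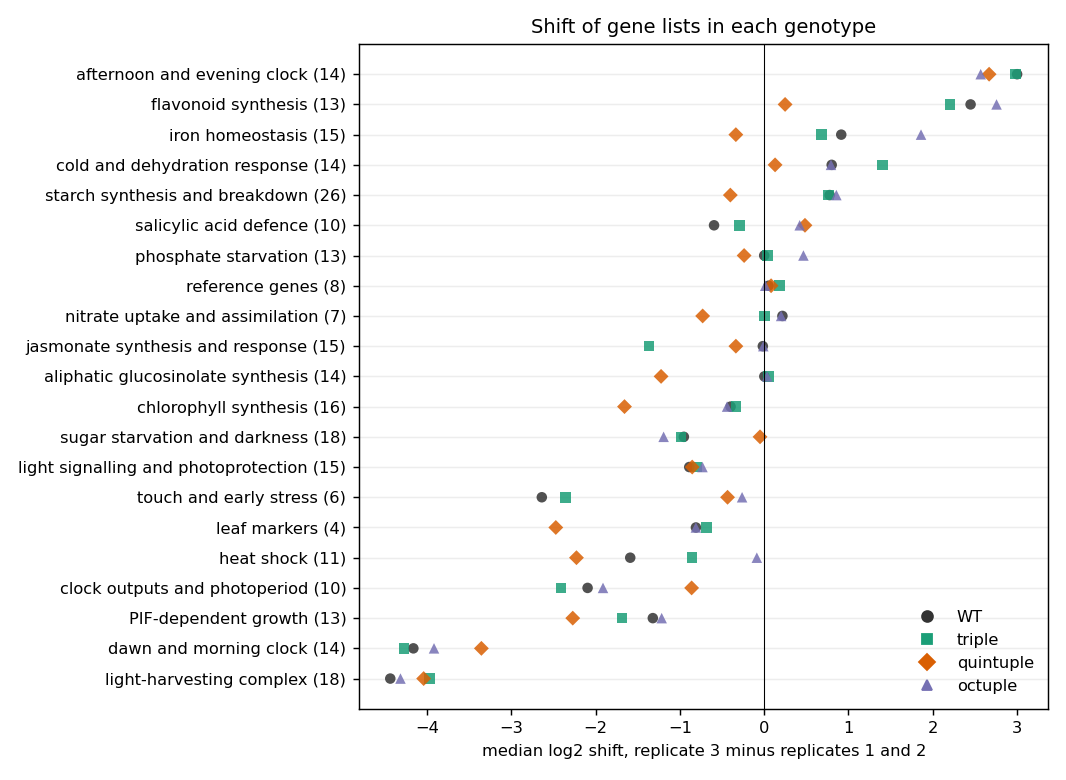
Median fitted log2 shift of replicate 3 against replicates 1 and 2 for each gene list (number of genes tested in brackets) in WT, triple, quintuple and octuple. The clock and light-harvesting lists, among others, have medians of one sign in all 4 genotypes, and starch (-0.40), chlorophyll (-1.66) and glucosinolate (-1.22) medians are lowest in quintuple.

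The single genes with the largest called differences in *quintuple* were mostly scarce there or elsewhere. *TRY*, a repressor of trichome fate, had 7.13, 7.16 and 6.06 CPM in WT and 0.634, 0.733 and 0 CPM in *quintuple*, where replicate 3 was at least 10.3-fold lower against a floor of 3 counts. AT2G27420, AT5G62360, *ABCI16* and AT1G29450 had 0 or 1 count in *quintuple* replicate 3. In the other direction *NAP*, a senescence NAC factor, had 30.4, 15.5 and 27.1 CPM in *quintuple* and 2.00, 2.56 and 0 CPM in WT. In WT replicate 3 it was at least 30.6-fold lower against the same floor, and in *quintuple* the level of replicate 3 lay between the other 2. AT1G10000, AT4G28085, AT3G46280 and AT2G41342 were likewise at 0 in 1 or more libraries numbered 3, and 100% of the 50-base sequences of AT2G41342 are shared with another gene.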

How the data were processed

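Aerial parts of seedlings of 4 genotypes, with 3 pooled samples each, were sequenced after TRIzol extraction, VAHTS Universal V6 library preparation and an Illumina NovaSeq 6000 run. The authors deposited counts of fragments per gene for 23784 genes, without normalization, and FPKM values, all of which were within 1% of those counts divided by gene length and library total. The submitters' processing notes name HISAT2, HTSeq and R 3.2.0; the genome build, the annotation and the strand setting are not given in the sources used here. Totals were 38698646 to 44294404 counts. Floors cover counting error only. Nothing in the sources ties the samples to separate sowings beyond calling the replicates independent, so p-values measure the spread between these samples. The test takes the libraries numbered 3 as separate replicates. If libraries of equal number belong together, the p-values do not measure the spread between replicate numbers, and only 1 number stands on the side of replicate 3.

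Counts were fitted with edgeR 4.0.16 (R 4.3.3; TMM, filterByExpr, quasi-likelihood test, genotype as a block), and p-values were adjusted after Benjamini and Hochberg over all genes tested. Calls took the thresholds of the study, an adjusted p under 0.05 with levels 2-fold or more apart. Differences between genotypes came from a model with a shift of replicate 3 in each genotype; the fits were tested on simulated data. Alternatives used DESeq2 1.42.0, limma 3.58.1 on log2(FPKM + 1), other scalings, no filter, a replicate block, and each library or genotype left out. Named genes were members of the gene lists, the 12 genes with the largest fold change in each direction where both classes averaged 10 counts or more and replicate 3 was on the same side in all 4 genotypes, the 5 largest called differences between genotypes in each direction, and the 4 genes most and least like *LHY*. The comparison, members and lists were chosen with earlier results of these data known. Deviations from the genotype mean correlated across genes at 0.182 to 0.501 between libraries numbered 1, 0.161 to 0.448 between those numbered 2 and 0.38 to 0.738 between those numbered 3. Replicate 1 with replicate 2 of another genotype gave 0.105 to 0.244, which overlaps the ranges of numbers 1 and 2. Replicate 3 with 1 or 2 gave -0.545 to -0.212, values that centring each genotype on its mean pushes below 0. Where genotypes share a shift of replicate 3, the same centring pushes the values among libraries numbered 1 and 2 above 0. Positive values there do not by themselves show pairing by number. Numbers were taken to pair the samples, less clearly so for 1 and 2. The model by genotype was therefore also fitted with the difference between replicates 1 and 2 as a replicate block. Shared sequence was the share of the 50-base sequences of a gene found in another gene (python 3.11.15, RefSeq TAIR10.1); of 320 named genes 50 shared more than 10% and 86 overlapped a gene on the other strand.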

Additional observations from a re-analysis of the deposited data

Results flagged for a closer look

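Within a class of 4 or 8 libraries or over the 4 genotypes, 1 value stood apart from the rest by Dixon's criterion in 5 of 32 groups examined. The criterion is set at about 1 in 20 for a single group. Most groups were list medians over the same 4 genotypes and rest on the same libraries, so 5 of 32 cannot be set against that rate. The TMM factor of *quintuple* replicate 3 was 1.25. The median shift of replicate 3 in *quintuple* was -1.66 for chlorophyll synthesis, -0.40 for starch, -1.22 for aliphatic glucosinolate synthesis and -2.47 for the leaf markers. All 5 values are of *quintuple*.

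The shift of replicate 3 differed between genotypes by the interaction test in 90 genes, and the shift in *quintuple* was above that of the rest in 230 and below it in 823. The contrast of both *cbp60* mutants with WT and *triple* gave -2.69 for *FRO6*, -2.47 for AT2G15020 and -1.76 for *FADA*. These genes also passed the contrast of *quintuple* with the rest, at -4.32, -4.47 and -3.30. The contrast of *quintuple* with the rest gave 3.90 for *PRR9*, 3.90 for *LNK3*, 2.34 for *LNK1*, 1.60 for *PRR7* and -3.27 for *COR27*. It gave 6.74 for AT1G10000, 6.20 for *NAP*, 5.89 for AT4G28085, 5.73 for AT3G46280 and 5.6 for AT2G41342. On the other side it gave -7.69 for *TRY*, -7.22 for AT2G27420, -6.84 for *ABCI16*, -6.55 for AT5G62360 and -6.23 for AT1G29450. All are differences of fitted log2 shifts, and those with libraries at 0 depend on the prior count.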

How the results depend on the processing

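Counts of genes called higher in replicate 3 were 875 with scaling to library size only (which raised the median of all genes to 0.17 and the share of higher calls from 38.1% to 53.7%), 209 without the genotype block, 354 without *triple*, 1774 by adjusted p alone and 131 against a fold change of 2; leaving out 1 library gave 391 to 714. Counts lower were 467 with limma, 333 without the genotype block, 1999 by adjusted p alone and 338 against a fold change of 2, and 763 to 982 with 1 library left out. A fit with all replicate numbers as a replicate block gave 598 higher and 895 lower, of which 550 and 876 were those called without it. Under that block *ELIP2* and *DFR* gained a call and *HFR1* and *DIN6* lost theirs, and no other named gene changed its call in this comparison. Differences between genotypes depended more on the tool. Any difference was called in 1298 genes by DESeq2, 192 by limma, 33 with library size only, 217 without a filter and 0 to 3 with 1 library left out (0 without *quintuple* replicate 2). A replicate block in that model, chosen after seeing the data, called 587 genes with any difference, 105 above and 157 below for both *cbp60* mutants and 466 above for *quintuple*; of the genes named for such a difference none lost its call. For both *cbp60* mutants, DESeq2 called 150 above and 254 below, limma 9 and 10, no filter 4 and 27, and leaving out 1 library 0 to 2 above and 2 below. For *quintuple*, DESeq2 called 377 above, and leaving out 1 library gave 75 to 217 above and 469 to 810 below. AT1G29450 turned to 0.48 in *quintuple* with limma on FPKM, where its adjusted p was 0.236. The causes were not tested. Of 302 named genes, 216 kept their side of the threshold under every alternative. Leaving out a library numbered 3 leaves no shift in its genotype, so no difference between genotypes was computed there. One library numbered 3 per genotype limits the precision of every such difference.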

Other observations

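Replicates 1 and 2 also differed from each other in a shared way. In 2702 of 20996 genes (12.9%) replicate 1 was above replicate 2 in all 4 genotypes, and in 2443 (11.6%) replicate 2 was above replicate 1. Among the 14 dawn and morning clock genes 9 were higher in replicate 1 in every genotype and 0 in replicate 2, *LHY* among them. Of the 14 evening genes 0 were higher in replicate 1 and 3 in replicate 2. *GRP7*, for example, had 42.1 and 123 CPM in WT replicates 1 and 2 and 53.1 and 176 CPM in *octuple*. Of 15 light signalling genes 8 were higher in replicate 1 throughout, *ELIP2*, an early light-induced protein, at 19.9 and 4.32 CPM in WT. These counts are a description without a test.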
